A study of Mus musculus with 23 samples.

Results

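The RNA levels of 9 genes that define GABA interneurons or their transmitters were compared between hippocampal cultures with and without CRE recombinase. The genes were *Gad1*, *Gad2*, *Slc32a1*, *Sst*, *Npy*, *Vip*, *Calb2*, *Lhx6* and *Dlx1*. They were taken by their Ensembl identifiers from count tables of 56941 genes, and each symbol matched 1 identifier in the GRCm39 annotation. All 9 were among the 14482 genes that passed the filter on low counts. Primary hippocampal neurons came from homozygous Nedd8cKO mice at postnatal day 0, in which loxP sites flank part of *Nedd8*, the gene of a ubiquitin-like protein. The day after plating they were infected with a lentivirus for CRE recombinase tagged with red fluorescent protein (CRE) or for the fluorescent protein alone (RFP, the control), in both cases under the Synapsin1 promoter. Both groups therefore carry the floxed alleles and a virus, and this promoter directs expression to neurons rather than to the glia that such cultures also hold. The sample labels give 12 days in culture at RNA extraction, while the study's methods give the following day. The sex of the pups was not checked.

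There were 12 CRE and 11 RFP libraries, whose names carry a culture number from 1 to 3 and a library number, written here as CRE 2-4 or RFP 1-1. The study's methods left out CRE 1-3 and CRE 3-3, so that the comparison below rests on 10 CRE against 11 RFP libraries, 21 in all. A count table of the study leaves out CRE 3-3 and RFP 3-2 instead, and calls that differ with those libraries are given as well. Nothing in the labels says that each library came from a separate animal, and the study's legends count as many animals or biological replicates as there are culture numbers, far fewer than libraries. The p-values over 21 libraries therefore measure the spread between libraries, part of which may be technical, and may be too small for a statement about animals.

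GABA interneurons are the inhibitory minority of hippocampal neurons. They make GABA from glutamate with the glutamate decarboxylases GAD67 (*Gad1*) and GAD65 (*Gad2*) and load it into synaptic vesicles with the transporter VGAT (*Slc32a1*). Subclasses are told apart by the neuropeptides somatostatin (*Sst*), neuropeptide Y (*Npy*) and vasoactive intestinal peptide (*Vip*) and by calcium-binding proteins such as calretinin (*Calb2*). *Dlx1* is a homeobox factor of the ganglionic eminences in which these cells are born, and *Lhx6* is a LIM homeobox factor of the medial eminence, the source of somatostatin and parvalbumin cells. *Calb2* and *Npy* are not restricted to interneurons, since calretinin is also found in Cajal-Retzius cells, mossy cells and immature granule cells.

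Counts assigned to genes summed to between 1546796 and 17112815 per library, and the lowest total was that of CRE 3-3. *Nedd8* was lower in every CRE library, at 5.92 to 18 CPM (counts scaled to library size with TMM factors) in the 10 compared and at 12.1 and 2.05 in CRE 1-3 and CRE 3-3, than in the RFP libraries at 44.1 to 76.0 CPM (log2 fold change -2.41 ± 0.16, edgeR adjusted p = 1.79e-12). CRE 1-3 and CRE 3-3 stood apart, with 0.261% and 1.833% of counts on mitochondrial genes against 6.997% to 9.884% in the other CRE libraries. RFP 2-4 had 3.435% on mitochondrial genes and in RFP 3-2 the ribosomal RNA gene *Rn18s-rs5* took 24.16%, and both remained in the comparison. Among these interneuron genes, CRE 1-3 and CRE 3-3 held the lowest *Gad1* and *Gad2* and the highest *Slc32a1* levels of all 23 libraries, so values over all 23 libraries are given where they change a call. In bulk RNA, fewer cells of a type and less RNA per cell cannot be told apart.

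The 9 genes did not move together. *Vip*, *Calb2*, *Sst* and *Gad2* fell in CRE libraries, *Slc32a1* and *Npy* had higher means in CRE without passing the test, and *Gad1*, *Lhx6* and *Dlx1* had log2 fold changes between -0.17 and 0.19. Lower were therefore 4 of 9 and higher 0 of 9 at an adjusted p under 0.05 (edgeR quasi-likelihood test, Benjamini-Hochberg over all 14482 genes). Of all genes tested, 37.9% were called, 17.8% as lower and 20.2% as higher in CRE. The median log2 fold change of the 9 genes was -0.17, and that of all genes tested was 0.02. Stricter thresholds were set after the study's own, at a log2 fold change of more than 1.3 in size and a -log10 p above 6, applied here to adjusted p. None of the 9 passed them with edgeR, against 2.09% of all genes. With DESeq2, *Vip* (-2.16, DESeq2 adjusted p = 1.51e-09) and *Calb2* (-1.57, DESeq2 adjusted p = 7.73e-09) passed them, against 2.85% of all genes, and so did *Vip* with edgeR and no filter on low counts (-2.14, edgeR adjusted p = 6.42e-07), against 1.06%. With counts summed per culture, 3 sums against 3, *Vip* and *Calb2* were called at an adjusted p under 0.05 and *Gad2* and *Sst* were not, where 22.9% of all genes were called. With a culture block on these sums all 4 were called lower and *Npy* higher, where 23.5% were called. The direction was the same in all 3 cultures for 8 of the 9 genes, all but *Gad1*, and for 58.2% of all genes.

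**Figure D1:**
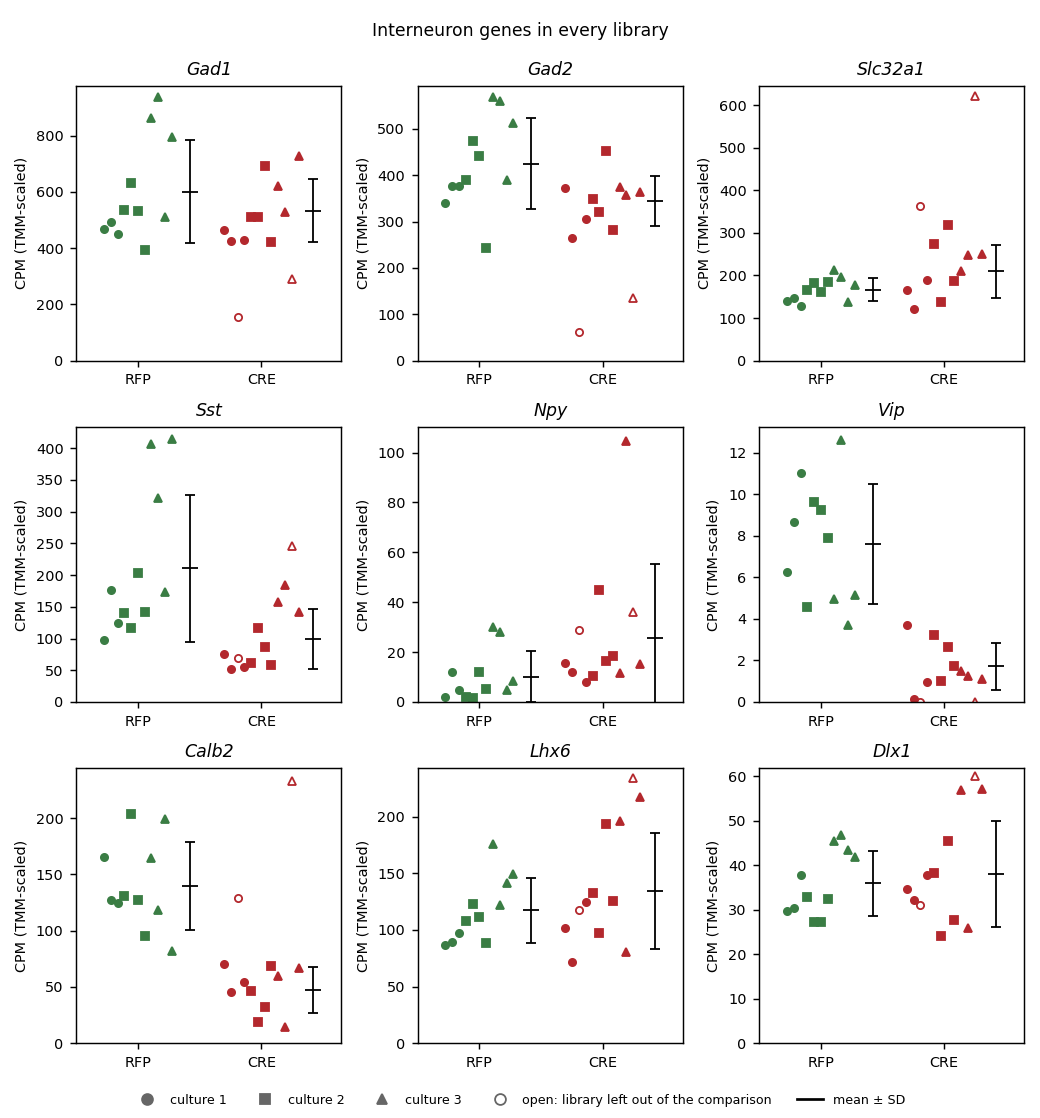
Level of each interneuron gene in every library, in CPM on linear axes that start at 0, with RFP libraries in green and CRE libraries in red. Point shapes mark the culture, open points the 2 libraries left out of the comparison, and the bars the mean ± SD of the libraries compared. *Vip* and *Calb2* are lower in each of the 10 CRE libraries than in any of the 11 RFP libraries, while the groups overlap in the other 7 panels.

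The enzymes of GABA synthesis changed little. *Gad1* (ENSMUSG00000070880, chr2:70383416-70432372, plus strand) was measured at 392.9 to 938.7 CPM in RFP libraries, with a median of 532.2, and at 423.6 to 727.9 CPM in CRE libraries, with a median of 510.0. The CRE libraries lay within the range of the RFP libraries, and the highest values of both groups were in culture 3. The log2 fold change was -0.17 ± 0.14 (SE, edgeR adjusted p = 0.38), and by culture it was -0.10, 0.03 and -0.31. *Gad2* (ENSMUSG00000026787, chr2:22511862-22583886, plus strand), whose product is the vesicle-associated form of the enzyme, was at 244.1 to 568.0 CPM in RFP with a median of 390.0, and at 264.4 to 451.4 CPM in CRE with a median of 353.6. Its ranges overlapped too, but its fall passed the test (log2 fold change -0.30 ± 0.12, edgeR adjusted p = 0.0408). It was lower in each culture, by -0.22, -0.14 and -0.48 on the log2 scale. This call was lost over all 23 libraries (-0.49, edgeR adjusted p = 0.089), without CRE 3-3 and RFP 3-2 only (-0.39, edgeR adjusted p = 0.162), with the sums per culture (-0.32, edgeR adjusted p = 0.0818, but 0.0442 with a culture block) and without culture 1 or culture 3 (edgeR adjusted p = 0.1 and 0.191). Over all 23 libraries 28.2% of genes were called, and without CRE 3-3 and RFP 3-2 30.2%.

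The vesicular GABA transporter went the other way from *Gad2* in its mean. *Slc32a1* (ENSMUSG00000037771, chr2:158452605-158464883, plus strand) was at 128.3 to 212.8 CPM in RFP libraries, with a median of 165.6, and at 121.9 to 317.5 CPM in CRE libraries, with a median of 199.7. Of the CRE libraries, 4 lay above every RFP library and 1 below. The log2 fold change of 0.34 ± 0.14 did not pass the test (edgeR adjusted p = 0.0536), and its values by culture were 0.19, 0.40 and 0.39. It passed under 7 of 20 other settings. Among them were culture as a block (0.34, edgeR adjusted p = 0.0185) and the set without CRE 3-3 and RFP 3-2 (0.44, edgeR adjusted p = 0.0423). It also passed over all 23 libraries (0.62, edgeR adjusted p = 0.0208), in which CRE 1-3 and CRE 3-3 had 363.6 and 620.7 CPM. Exons of *Slc32a1* share bases with the antisense lncRNA genes *Gm14204* and *Gm14205*, and the strand setting of the counting was not stated.

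Of the 3 neuropeptide genes, *Vip* and *Sst* fell and *Npy* did not pass the test. *Vip* (ENSMUSG00000019772, chr10:5589186-5599956, plus strand) was at 3.72 to 12.6 CPM in RFP libraries, with a median of 7.90, and at 0.146 to 3.72 CPM in CRE libraries, with a median of 1.35. The highest CRE and the lowest RFP library are equal to 3 digits, and every other CRE library was below that level. It fell by 77.3% (log2 fold change -2.14 ± 0.35, edgeR adjusted p = 1.75e-05), with -2.42, -1.87 and -2.36 in the 3 cultures. These were small numbers of reads, 2 to 49 per CRE library against 47 to 155 per RFP library. No *Vip* read was counted in CRE 1-3 and CRE 3-3, which allows up to 0.409 and 2.05 CPM at 3 counts, an error of counting only. With these 2 libraries the log2 fold change was -2.32 (edgeR adjusted p = 0.000156).

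*Sst* (ENSMUSG00000004366, chr16:23707321-23711733, minus strand), the gene of somatostatin, was at 97.6 to 415.3 CPM in RFP libraries with a median of 173.2, and at 51.9 to 183.8 CPM in CRE libraries with a median of 81.6. Of the 10 CRE libraries, 6 were below every RFP library, and the other 4 lay within the RFP range. It fell by 53.0% (log2 fold change -1.09 ± 0.31, edgeR adjusted p = 0.00932). Culture 3 had the highest levels in both groups: mean RFP levels were 133.3, 150.8 and 329.3 CPM in cultures 1, 2 and 3, and mean CRE levels 61.0, 81.1 and 161.2 CPM. Within the cultures the log2 fold changes lay close together, at -1.13, -0.90 and -1.03. The call was lost without culture 2 (-1.14, edgeR adjusted p = 0.083) and with counts summed per culture, 3 sums against 3 (-1.06, edgeR adjusted p = 0.222). A culture block on the same sums gave a call again (-1.07, edgeR adjusted p = 9.32e-05).

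*Npy* (ENSMUSG00000029819, chr6:49799026-49806489, plus strand) varied most, relative to its mean, of the 9 genes. It was at 1.74 to 30.2 CPM in RFP libraries with a median of 5.18, and at 8.12 to 104.8 CPM in CRE libraries with a median of 15.3. Every CRE library was above the median RFP library, 2 were above every RFP library, and CRE 3-2 with 104.8 CPM was far above the next, CRE 2-2 with 44.8 CPM. The log2 fold change of 1.36 ± 0.58 did not pass the test (edgeR adjusted p = 0.0728), and by culture it was 0.90, 2.08 and 1.3. Without CRE 3-2 it was 0.76 (edgeR adjusted p = 0.259), over all 23 libraries 1.42 (edgeR adjusted p = 0.0322), and without CRE 3-3 and RFP 3-2 1.63 (edgeR adjusted p = 0.0152). The change passed under 8 of 20 other settings, culture as a block among them (1.49, edgeR adjusted p = 0.0279). CRE 3-2 also held the lowest *Calb2* level and more genes with a count, 23738, than any other library, and the part of this library in the *Npy* difference beyond these values was not tested.

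The DNA before the start site is shown for the members that hold a cAMP response element or its core, because both *Sst* and *Vip* are textbook targets of cAMP signalling through such elements, which share only their abbreviation with the recombinase. Promoters of 250 bases before the start came from RefSeq (GRCm38.p6) for 8 of the 9 genes, all but *Calb2*, and were placed in GRCm39 by exact match. The full element TGACGTCA, which reads the same on both strands, was in the *Sst* promoter, 48 bases before the start, and in 1.55% of 32851 promoters. The core, TGACG on either strand and thus also within the full element, was in *Sst*, *Vip* and *Gad2* (79 and 33 bases before the start in the last 2) and in 17.8% of all promoters. It was not in the windows of *Gad1*, *Slc32a1*, *Npy*, *Lhx6* and *Dlx1*. The 30 bases around each match follow, 5′ to 3′ on the strand of the gene, with the match in capitals.
*Sst*, chr16:23709624-23709653, minus strand: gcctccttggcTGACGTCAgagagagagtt
*Vip*, chr10:5589127-5589156, plus strand: ggatcactactgTGACGtctttcggggagc
*Gad2*, chr2:22512294-22512323, plus strand: ccatttcccttcCGTCActctctcatctcc
In the GENCODE annotation, which starts some transcripts further upstream, the *Sst* match lies in a non-coding part of an exon in 7 of 7 transcripts and the *Gad2* match in 7 of 9, while the *Vip* match lies before all 19. A match describes these letters and no binding was measured.

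*Calb2* (ENSMUSG00000003657, chr8:110864128-110894881, minus strand), which encodes the calcium-binding protein calretinin, fell in every CRE library compared. It was at 82.1 to 203.7 CPM in RFP libraries, with a median of 127.6, and at 14.1 to 70.3 CPM in CRE libraries, with a median of 50.1. The groups did not overlap, as for *Vip*. In the lower direction this held for 2.6% of all genes tested. It fell by 66.0% (log2 fold change -1.56 ± 0.25, edgeR adjusted p = 3.9e-05), and by culture it was -1.3, -1.76 and -1.59. CRE 1-3 and CRE 3-3, left out of this comparison, had 129.4 and 233.3 CPM, within and above the RFP range. With them the log2 fold change was -1.03 (edgeR adjusted p = 0.0148).

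Neither transcription factor passed the test. *Lhx6* (ENSMUSG00000026890, chr2:35971964-35995601, minus strand) was at 87.1 to 175.9 CPM in RFP libraries with a median of 111.5, and at 71.5 to 217.6 CPM in CRE libraries with a median of 124.9. *Dlx1* (ENSMUSG00000041911, chr2:71358457-71364325, plus strand) was at 27.3 to 46.7 CPM in RFP and 24.0 to 57.2 CPM in CRE, with medians of 32.9 and 36.2. For both genes the CRE range was wider than the RFP range on both sides. The log2 fold changes were 0.19 ± 0.18 and 0.08 ± 0.15 (edgeR adjusted p = 0.449 and 0.709). Exons of *Dlx1* share 3251 of their 5396 bases with the antisense gene *Dlx1as*, whose own count was higher in CRE (log2 fold change 0.60 ± 0.24, edgeR adjusted p = 0.0469), and without the strand setting the reads of the pair cannot be told apart.

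The differences between cultures in these changes were within the spread between libraries. A test of the interaction of group with culture gave edgeR adjusted p from 0.825 (*Gad1*) to 0.989 (*Dlx1*) for the 9 genes, whose unadjusted p ran from 0.382 to 0.939. Of all genes, 0.311% had an adjusted p under 0.05 in this test and 9.89% an unadjusted one.

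**Figure D2:**
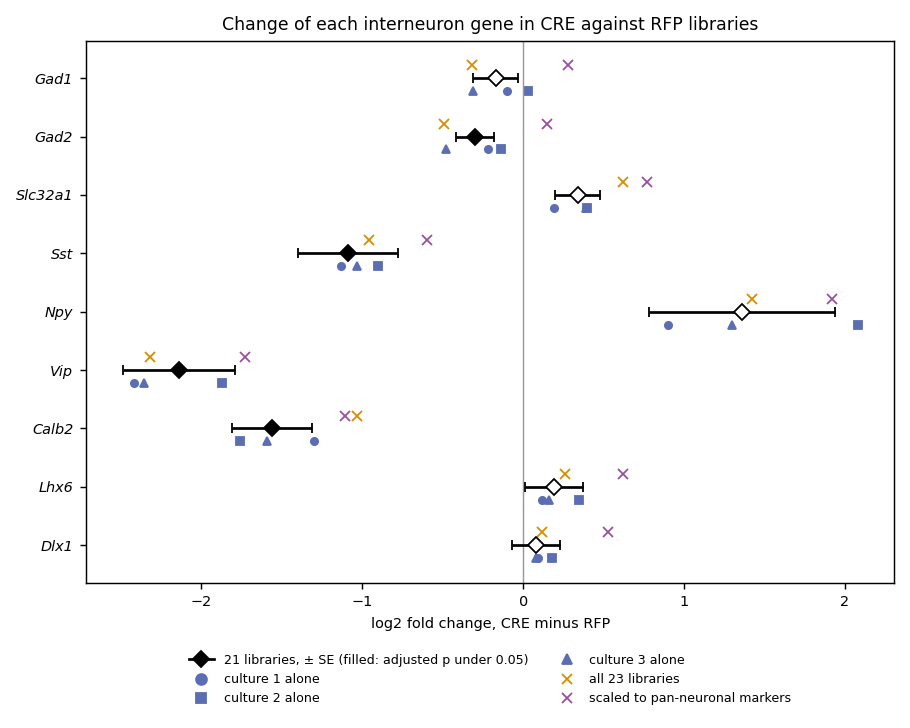
Log2 fold change of each interneuron gene, CRE minus RFP. Diamonds give the value over 21 libraries with its SE, filled where the adjusted p is under 0.05, blue points the value within each culture, and crosses the value over all 23 libraries and with libraries scaled to pan-neuronal markers. *Vip*, *Calb2* and *Sst* lie below 0 in every setting drawn, whereas the sign of *Gad1* and *Gad2* turns under the pan-neuronal scaling (0.28 and 0.15).

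The scaling of the libraries mattered for the small changes. Markers of all neurons were lower in CRE, with 9 of 15 called lower, against 17.8% of all genes, and a median log2 fold change of -0.49. Among these markers 1 was called higher, the neurofilament gene *Nefm*, against 20.2% of all genes. With libraries scaled to the sum of these markers, the median over all genes moved from 0.02 to 0.50, a shift of 0.48, *Gad1* and *Gad2* changed sign to 0.28 and 0.15 (edgeR adjusted p = 0.18 and 0.319), and *Sst* was no longer called (-0.60, edgeR adjusted p = 0.153). *Slc32a1* (0.77), *Npy* (1.92), *Lhx6* (0.62) and *Dlx1* (0.53) were called higher at that scale, with edgeR adjusted p from 9.75e-06 to 0.0156. Of all genes 57.6% were then called higher and 4.49% lower. *Vip* (-1.73) and *Calb2* (-1.11) were called lower under that scaling too. Relative to the median of all genes at that scale, *Gad1* and *Gad2* were lower and the other signs were as above.

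Within the control cultures, abundance per length followed the order *Gad1*, *Sst*, *Calb2*, *Gad2*, *Slc32a1*, *Lhx6*, *Npy*, *Dlx1*, *Vip*. In CPM per kb of the canonical transcript, *Gad1* had a mean RFP level of 144.8 ± 44.1 (SD, n = 11), *Sst* 122.4 ± 67.1 and *Calb2* 94.9 ± 26.5, while *Dlx1* had 8.74 ± 1.79 and *Vip* 4.86 ± 1.84. The ranges of neighbours in this order overlapped throughout. In CRE libraries *Calb2* was the 7th, at 32.2 ± 13.7 CPM per kb (SD, n = 10), *Slc32a1* the 2nd, at 73.0 ± 21.7, and *Npy* the 5th, at 45.4 ± 52.4. Among neighbours in the CRE order, the ranges of *Dlx1* and *Vip* did not overlap, and all others did.

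Ratios of counts within a library do not depend on its scaling and were compared between groups by two-sided permutation tests of 100000 resamples, with Benjamini-Hochberg adjustment over 8 ratios to *Gad2*. The ratio of *Gad2* to 1 glutamate marker differed between the groups. The study had already reported a strong fall of that marker, *Slc17a7*, so the test of this ratio is not separate support. The ratio of *Gad2* counts to those of *Slc17a7*, the vesicular glutamate transporter VGLUT1, was 0.163 to 0.703 in RFP libraries with a median of 0.386, and 0.808 to 2.08 in CRE libraries with a median of 1.28. Every CRE library was above every RFP library, and the difference was 1.73 on the log2 scale (permutation p = 2e-05, the smallest the resamples can give). *Slc17a7* itself fell from 1039.7 ± 195.7 to 260.5 ± 62.7 CPM (mean ± SD, n = 11 and 10), against a log2 fold change of -0.30 for *Gad2*. The difference of the ratio therefore mostly restates the fall of *Slc17a7*. CRE 1-3 and CRE 3-3 had ratios below most RFP libraries, and with them the difference was 1.18 (permutation p = 0.0153). No ratio was taken to *Slc17a6*, the gene of the other glutamate transporter VGLUT2, which was higher in CRE.

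Relative to *Gad2*, the subtype genes moved apart. The median ratio of *Vip* to *Gad2* was 0.0204 in RFP and 0.00382 in CRE, a difference of -2.09 on the log2 scale (permutation test, adjusted p = 0.00048), and that of *Calb2* to *Gad2* was 0.335 and 0.165 (-1.39, permutation test, adjusted p = 0.0008). The ratio of *Sst* to *Gad2* was lower as well, with medians of 0.460 and 0.206 (-0.78, permutation test, adjusted p = 0.0111). In contrast, the ratios of *Npy* (1.77), *Slc32a1* (0.58) and *Lhx6* (0.41) to *Gad2* were higher in CRE (permutation test, adjusted p = 0.00452, 0.00219 and 0.0211). The lower level of *Gad2* itself in CRE (log2 fold change -0.30) raises every ratio to it. The levels of *Npy*, *Slc32a1* and *Lhx6* alone did not pass the test (edgeR adjusted p = 0.0728, 0.0536 and 0.449), so these ratios do not show a rise of the 3 genes. The ratio of *Slc32a1* to *Gad2* had a median of 0.375 in RFP and of 0.641 in CRE, and RFP 2-4, at 0.753, was the only RFP library in the upper part of the CRE range. Relative to the median library, levels in RFP 2-4 rose with GC content across genes (Spearman 0.482, against -0.188 to -0.03 in the other RFP libraries). This value was 0.759 in CRE 1-3, 0.582 in CRE 3-3 and -0.22 to 0.209 in the CRE libraries compared. *Slc32a1* has a GC content of 58.47% and *Gad2* of 47.19%. With the GC trend of each library removed, their log2 fold changes were 0.38 and -0.34 (edgeR adjusted p = 0.0264 and 0.0134). The ratio itself was not recomputed without that trend, and the part of GC content in it was not tested. The 2 decarboxylases kept nearer to each other, with a median ratio of *Gad1* to *Gad2* of 1.37 in RFP and 1.52 in CRE (0.14, permutation test, adjusted p = 0.0743), and the ratio of *Dlx1* to *Gad2* did not pass either (0.33, permutation test, adjusted p = 0.0583). Over all 23 libraries the ratios of *Sst* (-0.37) and *Calb2* (-0.73) no longer passed (permutation test, adjusted p = 0.326 and 0.219), and those of *Gad1* (0.24) and *Dlx1* (0.69) did (permutation test, adjusted p = 0.0264 and 0.0219).

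**Figure D3:**
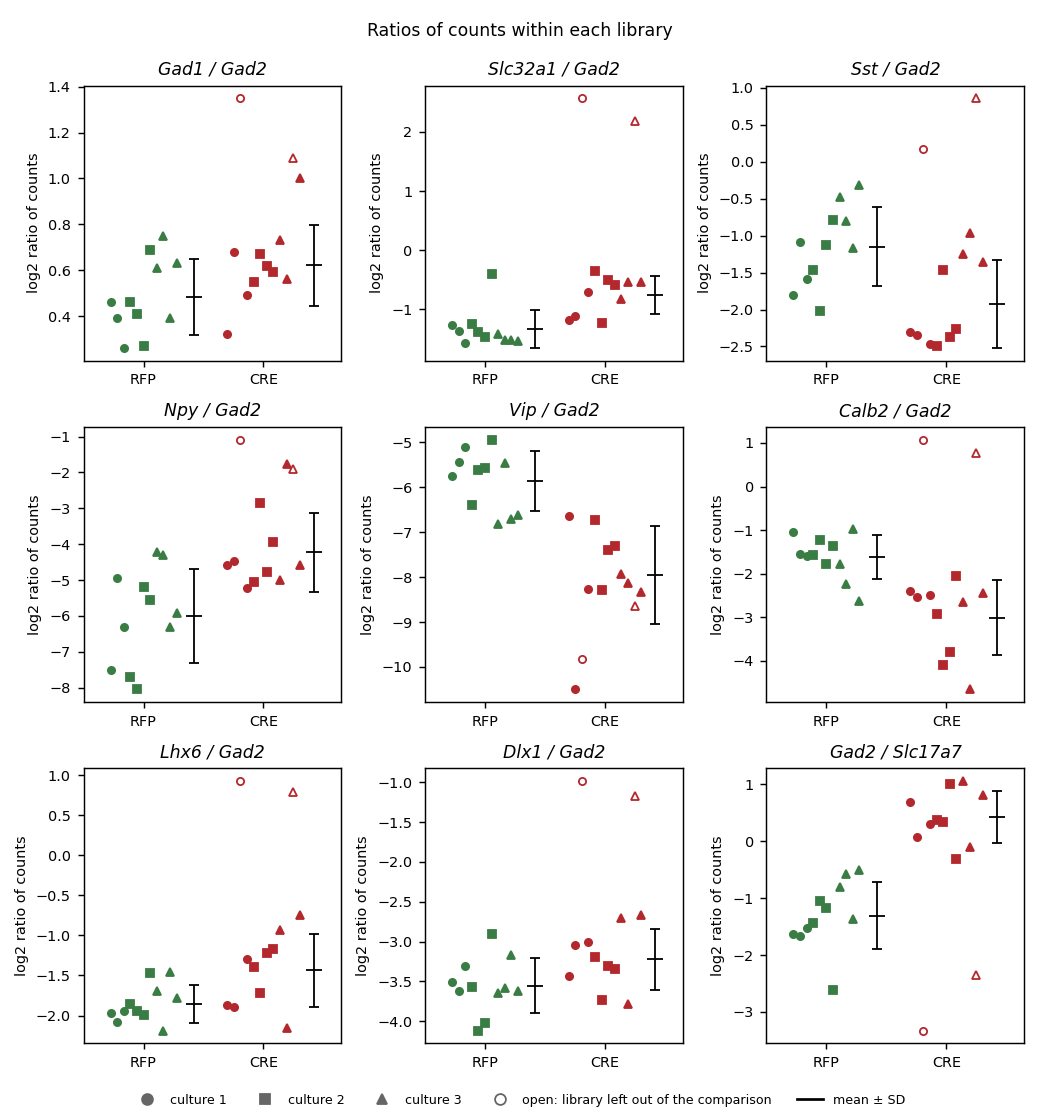
Log2 ratio of counts within each library, for 8 interneuron genes over *Gad2* and for *Gad2* over *Slc17a7*, by group, culture (point shape) and use in the comparison (open points were left out), with mean ± SD. In the last panel the 10 CRE libraries compared, at -0.31 to 1.06, lie above all RFP libraries, at -2.62 to -0.51, and the 2 libraries left out lie low.

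Other genes of interneuron development moved in both directions. Of 22 further genes of the lineage, most of them transcription factors, 20 could be tested. Of these, 7 were higher, 5 lower and 8 not called, with a median log2 fold change of 0.15. Over all genes tested, 20.2% were called higher and 17.8% lower. The list also held lncRNA genes of the *Dlx* loci, and *Dlx1as* was among the 7 called higher. *Etv1*, an ETS factor also of projection neurons, fell from 53.7 ± 14.0 to 20.3 ± 8.54 CPM (log2 fold change -1.40 ± 0.21, edgeR adjusted p = 8.69e-06). *Prox1* (-0.53), *Npas1* (-0.63) and *Bcl11b* (-0.64) were lower too (edgeR adjusted p = 0.00107, 0.0392 and 0.000185).

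Among 27 other subtype markers, 22 could be tested, and 6 were lower and 1 higher, with a median of -0.08. The shares over all genes tested were 17.8% lower and 20.2% higher. *Cnr1*, the cannabinoid receptor abundant in cholecystokinin interneurons, fell from 672.5 ± 126.4 to 352.0 ± 32.3 CPM (-0.93 ± 0.10, edgeR adjusted p = 7.29e-09). Its groups did not overlap, which held in this direction for 2.6% of all genes tested. *Cck*, the gene of cholecystokinin itself, which pyramidal cells express too, fell by 1.66 on the log2 scale (edgeR adjusted p = 0.000145). *Nos1*, the neuronal nitric oxide synthase, fell by 1.40 (edgeR adjusted p = 3.15e-06) and *Lamp5*, a marker of neurogliaform cells, by 0.84 (edgeR adjusted p = 0.000199). The gene called higher was *Pvalb*, the gene of parvalbumin, which falls outside the rule for named genes because its cultures differed in direction, and is named here after its values were seen. It rose from 1.34 ± 2.04 to 5.05 ± 3.06 CPM (1.96 ± 0.65, edgeR adjusted p = 0.0184).

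Of 16 genes of the interneuron surface, 14 could be tested, 4 were lower, 1 higher (*Tacr1*, a tachykinin receptor) and 9 not called, with a median of -0.30. Among the lower ones were *Elfn1*, a postsynaptic organizer of synapses onto somatostatin cells (-0.59), *Kcnc2*, a potassium channel of fast-spiking cells (-0.54), and *Erbb4*, the neuregulin receptor (-0.64), with edgeR adjusted p of 0.0021, 0.00307 and 0.0123. Of 12 genes of GABA uptake, breakdown and precursor supply, 9 could be tested, 3 were lower and 2 higher, with a median of -0.16. Beside both lists, 17.8% of all genes tested were called lower and 20.2% higher. *Slc6a11*, the GABA transporter GAT3, which is typical of astrocytes, fell from 255.3 ± 75.7 to 68.8 ± 27.6 CPM (-1.89 ± 0.25, edgeR adjusted p = 4.04e-06). Its groups did not overlap, as for 2.6% of all genes in this direction. *Aldh5a1*, an enzyme of GABA breakdown, fell by 0.51 on the log2 scale (edgeR adjusted p = 5.42e-05). The glutamine transporter *Slc38a2* rose (0.64 ± 0.08, edgeR adjusted p = 3.33e-07), although CRE 1-3 and CRE 3-3, which were left out, had 146.0 and 89.4 CPM, within and below the RFP range of 141.7 to 186.1 CPM. The related *Slc38a1* rose by 0.38 on the log2 scale (edgeR adjusted p = 0.0315).

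Markers of other cells in these cultures moved alongside. Of 14 markers of glutamatergic neurons, 11 were lower and 1, the VGLUT2 gene *Slc17a6*, was higher (1.61), with a median of -0.88. Their summed level was 3404.9 to 5829.5 CPM in RFP and 1511.9 to 2439.7 CPM in CRE. Over all genes tested, 17.8% were called lower and 20.2% higher. *Slc17a7* (-2.0), *Camk2a* (-1.94), *Neurod2* (-1.48) and *Bhlhe22* (-1.31) had the smallest p of the 14. None of these 4 overlapped between groups in the libraries compared, against 2.6% of all genes with CRE below every RFP library. They were picked by their p in the same comparison, so this separation is not separate support. *Neurod2* was above every RFP library in CRE 1-3 and CRE 3-3 (201.5 and 279.7 CPM). The summed level of the 9 interneuron genes was 1191.3 to 2473.4 CPM in RFP and 1024.3 to 1842.8 CPM in CRE, so that the ranges of the interneuron genes overlapped and those of the glutamatergic markers did not. *Calb2* is also expressed by Cajal-Retzius and mossy cells. Of 8 markers of Cajal-Retzius cells 3 could be tested and 1, *Ndnf*, was lower (-0.72), with a summed level of 163.5 to 652.0 CPM in RFP and 94.7 to 353.8 CPM in CRE. *Ndnf* is also among the interneuron subtype markers above, so that this list is not specific to Cajal-Retzius cells. The single mossy cell marker of 3 that could be tested was not called, and the summed level of the 3 was 5.54 to 21.7 CPM in RFP and 6.21 to 26.3 CPM in CRE. The part of any of these cells in the fall of *Calb2* was not tested.

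All 10 markers of dividing cells were lower (median -1.27), as were 7 of 10 markers of the oligodendrocyte lineage (median -1.50), and of 10 astrocyte markers 4 were lower and 2 higher (median -0.38). Their summed levels overlapped between groups for all 3 lists, at 166.4 to 334.6 against 60.9 to 210.3 CPM for dividing cells. Microglia were near absent, with summed markers at no more than 7.70 CPM in any library compared, *Aif1* at no more than 0.604 CPM, and 1 of 2 genes tested higher (*Tmem119*). Of endothelial and mesenchymal markers, 1 of 7 tested was higher (*Pdgfrb*), and of 12 genes induced by neuronal activity 2 were higher (*Nptx2* and *Fosb*), with medians of 0.77 and 0.40. Among all genes tested, 17.8% were called lower and 20.2% higher. *Sst*, *Npy* and *Vip* are known to respond to activity, and the part of activity in their levels was not tested.

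**Figure D4:**
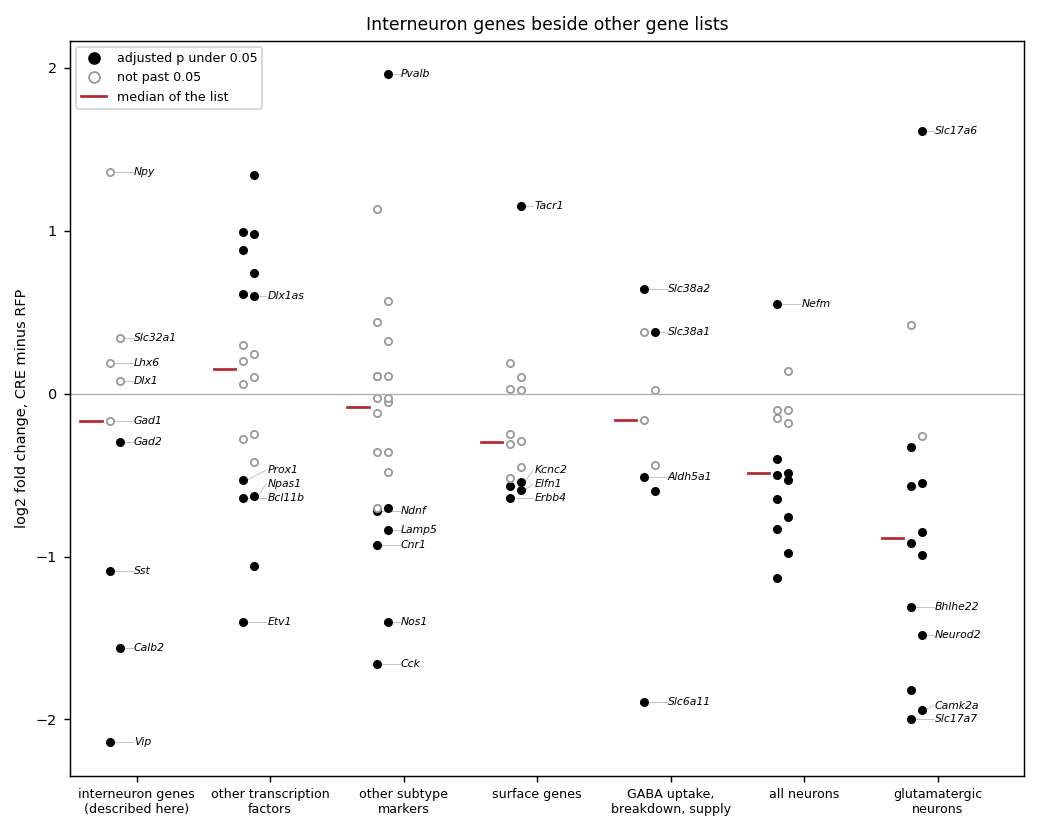
Log2 fold change, CRE minus RFP, of the interneuron genes beside those of 6 other gene lists. Each point is a gene that could be tested, filled where its adjusted p is under 0.05, with names for the genes given in the text. Red lines are the medians, which run from 0.15 for other transcription factors to -0.88 for glutamatergic neurons. The list of other transcription factors also holds lncRNA genes of the *Dlx* loci. The 9 interneuron genes span -2.14 to 1.36, with a median of -0.17.

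The genes whose pattern over the 21 libraries was most like the mean of *Gad1*, *Gad2* and *Slc32a1* were *Rab3c*, a Rab GTPase of secretory vesicles (Pearson r = 0.92), *Nxph2*, a neurexophilin that binds neurexins (0.85), *Nap1l5*, an imprinted gene (0.83), *Robo2*, a Slit receptor (0.83), and *Erbb4* (0.82). The likeness was taken on log2 CPM with each group's mean removed, over 14377 genes, in libraries that share cultures and differ in depth and RNA composition, and is a description. *Lhx6* stood at rank 38 (0.73), *Sst* at 89 (0.68), *Dlx1* at 299 (0.55), *Npy* at 1222 (0.37) and *Vip* at 1577 (0.34). *Calb2* stood at rank 8229 (-0.05), so that its level within the groups did not follow that of the 3 transmitter genes.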

How the data were processed

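Each of 23 samples had 1 table, in which the authors deposited whole-number counts of reads per Ensembl gene without normalization. Per the labels and the study's methods, Illumina Stranded mRNA libraries were sequenced on a NovaSeq6000, demultiplexed with bcl2fastq 2.20.0.422, aligned with STAR 2.7.8a to GRCm39 (Ensembl 110), and counted with featureCounts 1.5.0-p1. The strand setting and the treatment of reads with several places are not given in the sources used here, so that counts of overlapping genes are uncertain. The study's own fold changes came from PyDESeq2 and were not used.

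Groups came from the sample labels. The first number in a library's name was taken for the culture, although neither labels nor methods say so. GENCODE vM39 on GRCm39 gave names and positions for 56323 of 56941 genes. Counts were compared with edgeR 4.0.16 in R 4.3.3 (filterByExpr, TMM, estimateDisp, robust glmQLFit, glmQLFTest), over the 21 libraries left by the study's methods and with no covariate, and p-values were adjusted after Benjamini-Hochberg over every tested gene. SE is the log2 fold change divided by the root of F. CPM were scaled by TMM factors over all 23 libraries. Ratios used a pseudocount of 0.5. In 14 other gene lists, up to 4 called genes with the smallest p and the same direction in all 3 cultures were named. Genes outside this rule, named after their values were seen, are *Pvalb*, *Tacr1*, *Nefm*, *Slc17a6*, *Slc38a1*, *Prox1*, *Npas1*, *Bcl11b*, *Dlx1as*, *Aif1* and *Rn18s-rs5*. Some genes that the rule takes are not reported here. Genes like *Gad1*, *Gad2* and *Slc32a1* were ranked among those with a mean of at least 1 CPM. The members and lists were chosen with earlier results of these data known. The fits were tried on simulated counts of independent libraries with a single dispersion. These counts held no culture effect and no GC trend, so the trial does not cover those features of the data.

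Alternatives changed the libraries, tool (DESeq2 1.42.0, limma-voom 3.58.1), scaling, filter, block, unit of replication, cultures and GC content, 19 of them planned. Leaving out CRE 3-2 was added after seeing the data. No pair of libraries of the same group agreed within sampling noise (lowest chi-square per gene 10.42).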

Additional observations from a re-analysis of the deposited data

Results flagged for a closer look

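Among the 10 CRE libraries, 3 values passed Dixon's criterion for a value apart from the rest, of 64 sets of CRE values examined. Chance alone gives about 1 in 20, which is about as many as were found, so the 3 are listed as a description only. *Npy* was at 104.8 CPM in CRE 3-2, with the next library at 44.8 CPM. *Gpr17*, a receptor of the oligodendrocyte lineage, was at 78.8 CPM in CRE 2-4, with the next library at 35.5 CPM. The log2 ratio of *Vip* to *Gad2* was -10.5 in CRE 1-2, which had 2 *Vip* reads, with the next library at -8.33.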

How the results depend on the processing

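*Vip*, *Calb2* and *Nedd8* were lower with a call in all 20 alternatives of the comparison (log2 fold changes -2.41 to -1.73, -1.68 to -1.03 and -2.65 to -1.93). Over all 23 libraries the number of members called higher was 2 (*Slc32a1* 0.62, *Npy* 1.42), against 16.4% of all genes, and *Gad2* was not called (-0.49). Without CRE 3-3 and RFP 3-2, the libraries that a count table of the study leaves out, it was 2 as well (*Slc32a1* 0.44, *Npy* 1.63). There, too, 16.4% of all genes were called higher, and *Gad2* was not called (-0.39). With limma-voom, 1 was called higher (*Npy* 1.53), against 21.5% of all genes, and *Gad2* was not called (-0.28). With libraries scaled to pan-neuronal markers, 8987 genes were called, 4 members were higher (*Slc32a1* 0.77, *Npy* 1.92, *Lhx6* 0.62, *Dlx1* 0.53) and 2 lower, *Sst* was not called (-0.60), and *Gad1* (0.28) and *Gad2* (0.15) changed sign. With the GC trend of each library removed, 1 was higher (*Slc32a1* 0.38), against 20.1% of all genes.

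Whether the culture numbers pair the groups was not settled. Correlations of same-numbered culture means of CRE and RFP, group means removed, were 0.121, 0.178 and 0.078, not all above 0.1, although each culture correlated best with its own number. With culture as a block, 2 members were called higher (*Slc32a1* 0.34, *Npy* 1.49), where 5657 genes were called and 21% of all genes were higher. With block and GC trend removed, 2 were called higher as well (*Slc32a1* 0.39, *Npy* 1.44), against 21.1% of all genes. The block of culture and library number changed no member's call. With counts summed per culture, 3 against 3, 2 members were called lower, without *Gad2* (-0.32) and *Sst* (-1.06), and with a culture block on these sums all 4 were again called lower (*Gad2* -0.31, *Sst* -1.07) and 1 higher (*Npy* 1.36).

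Leaving out a culture in turn gave log2 fold changes of -0.39 to -0.23 for *Gad2* (-0.33 without culture 1), 0.28 to 0.39 for *Slc32a1*, -1.14 to -1.04 for *Sst* and 1.12 to 1.60 for *Npy*, and 0 to 1 members called higher. Of all genes, 13.9% to 16.6% were then called higher. *Gad2* lost its call without culture 1 or 3 and *Sst* without culture 2, while *Slc32a1* gained one without culture 1 and *Npy* without culture 3. Ratios to *Gad2* ranged from 0.43 to 0.65 (*Slc32a1*), -0.83 to -0.72 (*Sst*, -0.75 without culture 2), 1.37 to 2.05 (*Npy*) and 0.39 to 0.46 (*Lhx6*, 0.40 without culture 2), and lost their call without culture 3 (*Slc32a1*) or 2 (the others).

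Of the ratios to *Gad2* over all 23 libraries, *Gad1* (0.24) and *Dlx1* (0.69) passed, and *Sst* (-0.37) and *Calb2* (-0.73) did not. Without CRE 3-3 and RFP 3-2, *Gad1* (0.23) and *Dlx1* (0.53) passed and *Sst* (-0.55) did not. Without RFP 2-4, *Gad1* (0.16) and *Dlx1* (0.39) passed, and without CRE 3-2 *Dlx1* did (0.39). The causes of these shifts were not tested. Depth limits *Vip* most, with as few as 2 reads in a CRE library.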
